A study of Mus musculus with 8 samples.

Results

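Transcripts of muscle stem cells and of muscle fibres were followed in RNA sequencing libraries of mouse fibro/adipogenic progenitors (FAPs), mesenchymal cells of skeletal muscle that can form fibroblasts and adipocytes. The 41 genes were taken by symbol for their known place in muscle, 15 as genes of satellite cells and myoblasts and 26 as genes of muscle fibres, out of 37991 genes in the files. They were named for their known roles, but with earlier results of these data known, and all 41 were found. The cells had been purified from tibialis anterior, a muscle of the lower leg, in mixed-background mice. It was taken 3 days after glycerol injury, which damages fibres and is followed by regeneration and fat formation. The FAP-ctrl group holds 5 libraries from wild type muscle. The FAP-no cilia group holds 3 libraries of cells that had lost the primary cilium through conditional deletion of a floxed Ift88 allele. The sources used here do not give the Cre driver, the sorting gate or the age of the mice. They also leave unsaid whether libraries are separate animals, so p-values measure the spread between these libraries.

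Satellite cells are the stem cells of muscle and are marked by the transcription factor Pax7. After injury they express Myf5 and Myod1, divide as myoblasts, switch on Myog and fuse through the membrane protein Mymk into new fibres, which then fill with sarcomere proteins. FAPs lie between the fibres, belong to another lineage marked by Pdgfra, and are released from the same digested muscle. In bulk libraries, fewer cells of a type and less RNA per cell cannot be told apart.

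The libraries held 15.3 to 43.9 M gene reads. The deposited values are read counts divided by a size factor, called normalized read counts here, and 1 read was worth 0.61 in the deepest library (FAP-ctrl 1) and 1.79 in the shallowest (FAP-no cilia 2). Pdgfra stood between 33773 and 51005 in the 8 libraries, and all 15 FAP markers were at 10 or more in each. Ift88, the deleted gene, stood at 195 to 322 in FAP-no cilia and at 457 to 594 in FAP-ctrl, with no overlap. By Xist and 4 Y-linked genes, FAP-ctrl 1 and 2 and the 3 FAP-no cilia libraries came from males and FAP-ctrl 3, 4 and 5 from females, so values of the male libraries are given where they matter.

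The regulatory letters shared by many of these genes are shown first. The E-box CANNTG is the core motif of the Myod1 family of transcription factors, and CAGCTG is one form of it that reads the same on both strands. In the RefSeq promoter table of GRCm38.p6, which gives 250 bases before and 50 after each start, 30 of the 41 members were matched by symbol. Of these 30, 13 (43.3%) held CAGCTG, against 18.3% of the 27025 genes in the table. It was found in 3 of 9 matched satellite cell and myoblast members and in 10 of 21 matched fibre members. The wider motif CANNTG, which includes CAGCTG, was in 24 of the 30 (80%) and in 74.99% of all genes. CACCTG on either strand was in 6 of the 30 (20%) and in 22.6% of all. The MEF2 motif was in 1, Ttn, and in 0.636% of all. These are matches of letters, and binding was not measured.

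Promoter stretches of 6 members with CAGCTG within 100 bases before the start are printed because these genes span the levels below, from Des and Musk to Myh4, which had 0 reads in every FAP-no cilia library. Each runs 5′ to 3′ on the strand of its gene, with CAGCTG in capitals. The stretches lie at chr2:73580350-73580457 (Chrna1, minus strand), chr4:58285867-58285926 (Musk, plus), chr1:75360229-75360288 (Des, plus), chr7:127211530-127211589 (Mylpf, plus), chr7:126463096-126463155 (Atp2a1, minus) and chr11:67237718-67237777 (Myh4, plus). Chrna1 held the motif at both 92 and 44 bases before its start, and the other 5 held it once, 36 to 68 bases before.
Chrna1: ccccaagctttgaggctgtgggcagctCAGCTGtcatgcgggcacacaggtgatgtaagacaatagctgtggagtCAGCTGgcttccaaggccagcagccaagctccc
Musk: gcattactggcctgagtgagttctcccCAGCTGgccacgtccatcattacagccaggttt
Des: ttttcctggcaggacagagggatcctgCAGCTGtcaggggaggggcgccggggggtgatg
Mylpf: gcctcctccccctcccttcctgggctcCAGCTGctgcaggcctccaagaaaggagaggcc
Atp2a1: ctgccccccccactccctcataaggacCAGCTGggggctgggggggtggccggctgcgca
Myh4: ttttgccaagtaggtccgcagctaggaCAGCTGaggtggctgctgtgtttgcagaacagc

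The 41 genes together took 0.0214% to 0.0313% of the gene reads of a library, and the 26 fibre genes 0.0012% to 0.00223%. Most members were at or near the limit of detection. A value of at least 10 in all 8 libraries was reached by 13 members, 5 of the satellite cell and myoblast group and 8 of the fibre group. Myf6 and Tnnc2 had 0 reads in every library. Between 4 and 9 members had no read in a FAP-ctrl library, against 17, 15 and 7 in FAP-no cilia 1, 2 and 3. The depths of these 3 libraries were 23.4, 15.3 and 29.5 M reads, and the part of depth in these counts was not tested.

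**Figure D1:**
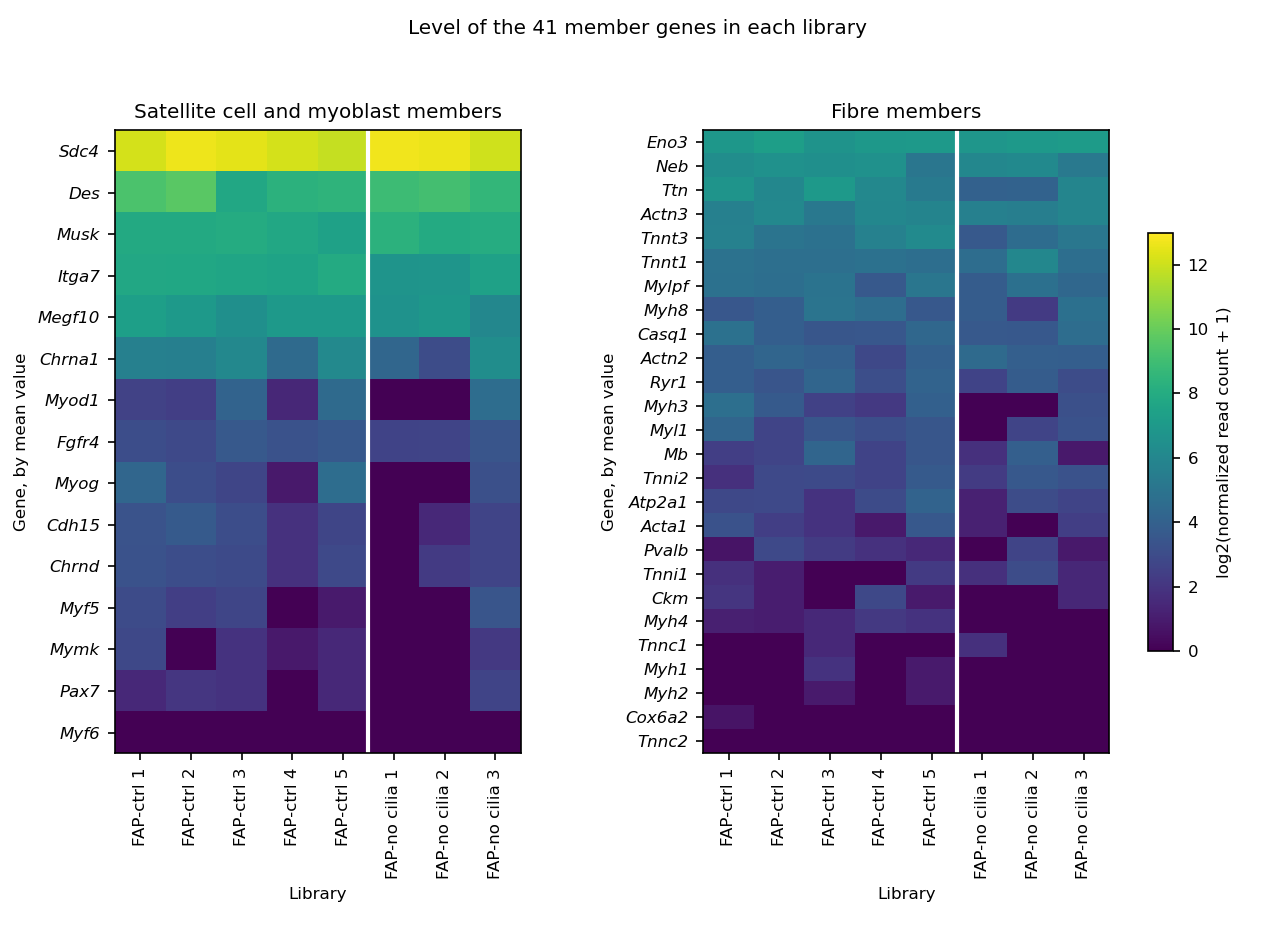
Colour gives log2(normalized read count + 1) of each member gene (rows, ordered by mean value within each panel) in each of the 8 libraries (columns, with a white line between FAP-ctrl and FAP-no cilia). Sdc4 is the only member in the top of the scale. Pax7, Myf5, Myod1, Myog and Mymk are at 0 in FAP-no cilia 1 and 2, and Myf6 and Tnnc2 are at 0 throughout.

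Set per kilobase of annotated exon, so that genes can be compared, the mean level over the 8 libraries was 2076 for Sdc4 and 4266 for the FAP marker Pdgfra. Des (125), Eno3 (71.8), Musk (65.1), Tnnt3 (24.1), Itga7 (22.4), Mylpf (21.9), Actn3 (18.6), Megf10 (14.8), Tnnt1 (13.9) and Chrna1 (10.3) followed, in normalized reads per kilobase. Every other member was under 10 per kilobase. Among these were the myogenic transcription factors Myog (5.34), Myod1 (4.92), Myf5 (1.63) and Pax7 (0.318) and the fibre genes Acta1 (2.69), Ckm (0.552) and Myh4 (0.215). Ttn, with a mean normalized read count of 61.5 and 116825 annotated exon bases, stood at 0.527 per kilobase.

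Pax7, Myf5, Myod1, Myog and Mymk are called the 5 regulators here, although Mymk is a fusion protein. Together they had at most 62 reads in any library. Pax7, the defining factor of satellite cells (ENSMUSG00000028736, GRCm38 chr4:139737062-139833528), stood at 1.83, 3.21, 2.79, 0 and 1.82 normalized reads in FAP-ctrl 1 to 5 and at 0, 0 and 5.25 in FAP-no cilia 1 to 3. It collected 17 reads over all 8 libraries. FAP-no cilia 3 was the highest and the groups overlapped.

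Myf5, an early myogenic factor, stood at 6.70, 4.29, 5.59, 0 and 0.911 in FAP-ctrl and at 0, 0 and 9.63 in FAP-no cilia. Myod1, the factor of activated myoblasts (ENSMUSG00000009471, chr7:46376474-46379099), stood at 4.88, 4.29, 16.8, 1.74 and 21.9 and at 0, 0 and 23.6. Myog, which drives differentiation (ENSMUSG00000026459, chr1:134289989-134292548), stood at 18.3, 7.50, 5.59, 0.868 and 23.7 and at 0, 0 and 7.88. For each of these genes the values of FAP-no cilia 3 lay among or above those of FAP-ctrl, whereas the other FAP-no cilia libraries had none.

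Mymk, the fusion protein of myoblasts, stood at 6.10, 0, 2.79, 0.868 and 1.82 and at 0, 0 and 3.50. Pax7, Myf5, Myod1, Myog and Mymk together gave 62, 18, 36, 4 and 55 reads in FAP-ctrl 1 to 5, against 0, 0 and 57 reads for FAP-no cilia 1 to 3. A count of 0 allows up to 3 reads, which is a normalized value of 3.78 in FAP-no cilia 1 and 5.38 in FAP-no cilia 2. The sum of FAP-ctrl 4, 3.47, is under both limits, so these 3 libraries could not be told apart at this depth. Such limits cover counting error only, and only that of the counts of 0. For Myod1, FAP-ctrl 1 and 2 (4.88 and 4.29) also lay under the limit of FAP-no cilia 2.

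**Figure D2:**
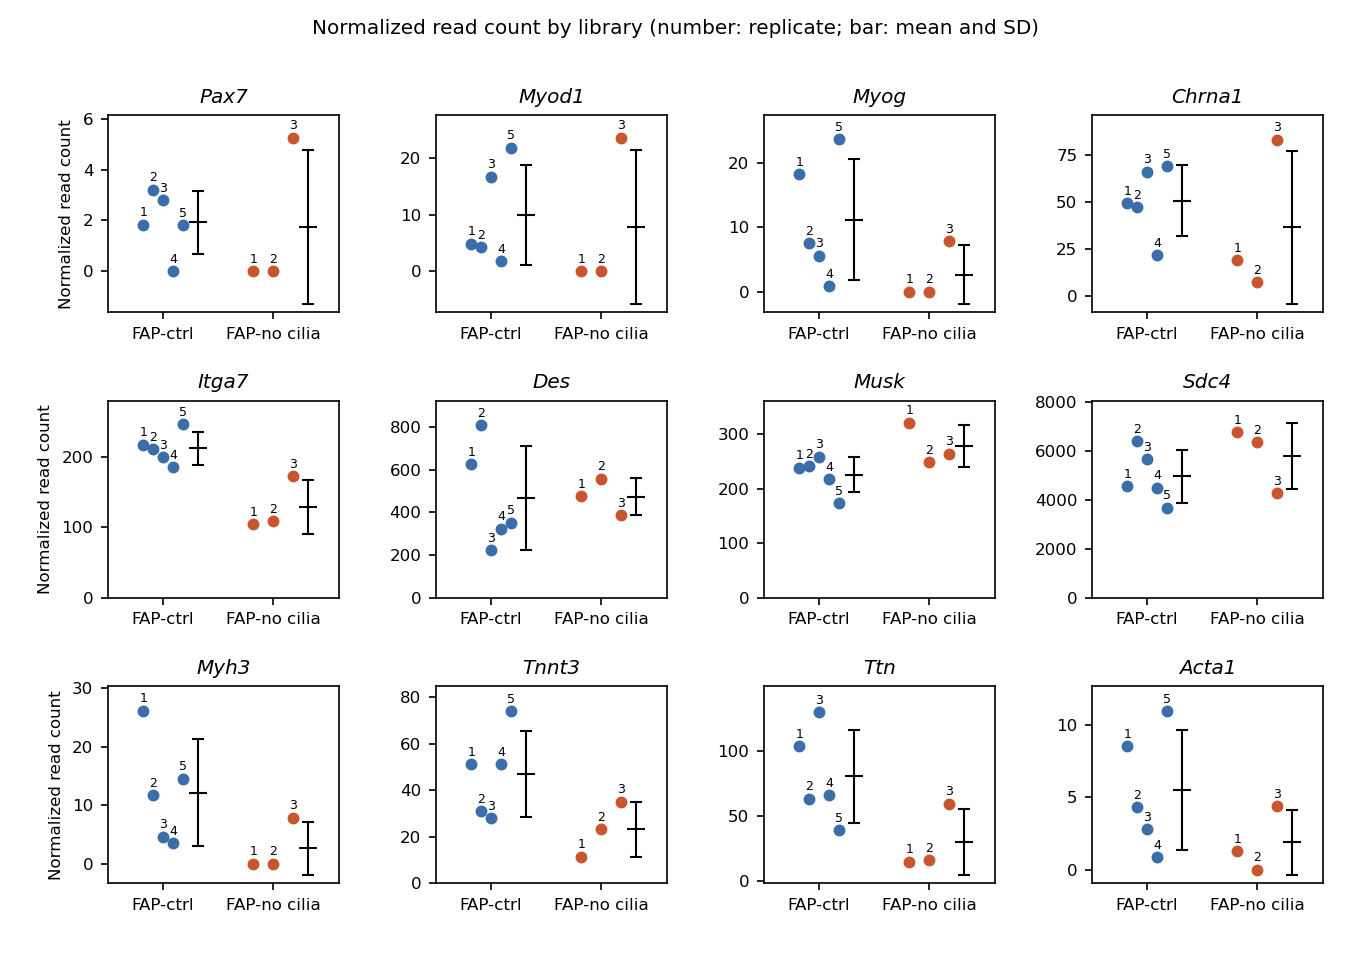
Normalized read count (linear axis, a separate scale for each of 12 genes) of every library, with the replicate number beside each point and a bar for the mean and SD of each group (5 FAP-ctrl and 3 FAP-no cilia libraries). For Pax7, Myod1, Myog and Myh3, FAP-no cilia 1 and 2 lie at 0 and FAP-no cilia 3 within or above the range of FAP-ctrl; Itga7 is the gene shown whose groups do not overlap.

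The surface and adhesion genes of the group behaved in another way, since several stood far above the regulators. Itga7, the laminin-binding integrin chain of satellite cells and fibres (ENSMUSG00000025348, chr10:128933818-128958282), stood at 218, 211, 200.3, 186 and 247 in FAP-ctrl and at 105, 109 and 173 in FAP-no cilia. All 3 FAP-no cilia libraries were below all 5 FAP-ctrl libraries. Its mean was 212 ± 22.8 (SD, n = 5) in FAP-ctrl against 129 ± 38.4 (SD, n = 3) in FAP-no cilia, a ratio of 0.608.

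Itga7 had the smallest p of any member, but its log2 difference of -0.75 ± 0.19 (SE) did not pass in limma-trend over all genes (adjusted p = 0.232) or in DESeq2 (adjusted p = 0.0535). All differences from limma-trend are of log2(value + 1), and for low genes they depend on that scale and on libraries at 0. For Myod1 the log2 difference was -1.47 ± 1.12 (SE, limma adjusted p = 0.668), against -0.28 in DESeq2 and -0.088 in edgeR. For Chrna1, described below, it was -1.01, against -0.45 in DESeq2 and -0.40 in edgeR, with a ratio of group means of 0.718. Among male libraries the log2 difference of Itga7 was -0.77 (limma adjusted p = 0.583), with FAP-ctrl 1 and 2 at 218 and 211. Itga7 is also made by smooth muscle, and the summed value of 9 pericyte and smooth muscle markers was 3183 to 5842 in FAP-ctrl and 5080 to 6229 in FAP-no cilia, and none of them was at 0 in FAP-ctrl. Their part in the Itga7 difference was not tested.

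Sdc4, a heparan sulfate proteoglycan used to sort satellite cells and made by many cell types, ranged from 3683 to 6791 over all libraries. It made up 77.1% to 86.9% of the summed value of its group in each library. The groups overlapped (log2 difference 0.22 ± 0.20 SE, limma adjusted p = 0.713). Among male libraries the difference was 0.074, and it lay between 0.098 (without FAP-no cilia 1) and 0.43 (without FAP-no cilia 3) with 1 library left out. Des, the intermediate filament of muscle cells, which is also on the pericyte and smooth muscle list (ENSMUSG00000026208, chr1:75360329-75368579), stood at 627, 810.1, 224, 323 and 351 and at 476, 557 and 385.

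The FAP-ctrl values of Des were highest in the 2 male libraries. Over all libraries its log2 difference was 0.16 ± 0.36 (SE, limma adjusted p = 0.913). Among male libraries it turned to -0.61 (limma adjusted p = 0.573), with all 3 FAP-no cilia values below both FAP-ctrl values. Without FAP-ctrl 3 it was -0.068.

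Megf10, a receptor of satellite cells (ENSMUSG00000024593), stood at 160.3, 125, 88.5, 125 and 132 in FAP-ctrl and at 98.4, 118 and 63.9 in FAP-no cilia, with overlap (log2 difference -0.45 ± 0.24 SE, limma adjusted p = 0.540, and -0.20 without FAP-no cilia 3). Cdh15, the M-cadherin that joins satellite cells to fibres, stood at 9.14, 11.8, 7.45, 2.60 and 5.47 and at 0, 1.79 and 5.25. Fgfr4, a growth factor receptor of myoblasts, ranged from 5.05 to 11.2. Cdh15 and Fgfr4 were too low for the test.

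Of the genes of the neuromuscular junction, which myoblasts also express, Chrna1 was lowest in the same libraries as the regulators and Musk was not. Chrna1, the alpha subunit of the muscle acetylcholine receptor (ENSMUSG00000027107, chr2:73563215-73580338), stood at 49.4, 47.2, 66.1, 21.7 and 69.3 in FAP-ctrl and at 18.9, 7.17 and 83.2 in FAP-no cilia. FAP-no cilia 3 had the highest value, and the 3 lowest were FAP-no cilia 2, FAP-no cilia 1 and FAP-ctrl 4, the libraries with the fewest reads of the 5 regulators. Chrna1 is better measured than the regulators, with 411 reads over the libraries against 83 of Myod1 and 79 of Myog. Musk had 2033 reads.

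The log2 difference of Chrna1 was -1.01 ± 0.66 (SE, limma adjusted p = 0.611), and it was -1.92 without FAP-no cilia 3 and -0.23 without FAP-no cilia 2. Chrnd, another subunit of the receptor, stood at 2.60 to 8.53 in FAP-ctrl and at 0, 3.58 and 5.25 in FAP-no cilia. Musk, the kinase that clusters these receptors (ENSMUSG00000057280, chr4:58285960-58374303), stood at 239, 241, 259, 218 and 174 and at 322, 249 and 264. Its groups overlapped, with a log2 difference of 0.30 ± 0.16 (SE, limma adjusted p = 0.517) that was 0.19 without FAP-no cilia 1.

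In fibres, the thick filament is built of myosin heavy chains that mark fibre age and type. The adult fast chains Myh1, Myh2 and Myh4 had at most 3.47 normalized reads in any library and 0 reads in all 3 FAP-no cilia libraries. Myh4 stood at 1.22, 1.07, 1.86, 3.47 and 2.73 in FAP-ctrl, in total 12 reads, so the lack of overlap rests on 1 to 4 reads per library. Both groups lie at or under the limit of 3 reads, apart from FAP-ctrl 4, and no fold is given. The 50-base reads of this family are not fully separable: 30.5% of the 50-base stretches of Myh1, 24.6% of Myh2, 18.9% of Myh4, 12.1% of Myh8 and 4.76% of Myh3 occur in transcripts of another gene.

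Myh3, the embryonic chain of regenerating fibres (chr11:67078300-67102291), stood at 26.2, 11.8, 4.66, 3.47 and 14.6 in FAP-ctrl and at 0, 0 and 7.88 in FAP-no cilia. FAP-no cilia 1 and 2 had no read and FAP-no cilia 3 was within the range of FAP-ctrl. As 0 allows 3.78 in FAP-no cilia 1 and 5.38 in FAP-no cilia 2, neither could be told apart from FAP-ctrl 4. FAP-no cilia 2 could not be told apart from FAP-ctrl 3 either. FAP-ctrl 3 rests on 5 reads, whose own counting error is not in these limits. Its log2 difference was -2.36 ± 0.86 (SE, limma adjusted p = 0.371). Myh8, the perinatal chain, stood at 10.4 to 30.7 and at 12.6, 3.58 and 27.1.

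The light chains of fast fibres were low. Mylpf ranged from 11.3 to 33.7 in FAP-ctrl and from 12.6 to 26.9 in FAP-no cilia. Myl1 stood at 17.7, 5.36, 10.2, 7.81 and 10.03 and at 0, 5.38 and 8.76 (log2 difference -1.41 ± 0.72 SE, limma adjusted p = 0.514, and -0.42 without FAP-no cilia 1). Both overlapped between the groups.

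On the thin filament, Acta1, the skeletal actin and a leading transcript of mature muscle (chr8:123891769-123894751), had 40 reads over all libraries. It stood at 8.53, 4.29, 2.79, 0.868 and 10.9 in FAP-ctrl and at 1.26, 0 and 4.38 in FAP-no cilia. Tnnt3, the fast troponin T (ENSMUSG00000061723, chr7:142498836-142516009), stood higher, at 51.2, 31.1, 27.9, 51.2 and 73.8 and at 11.4, 23.3 and 35.03.

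FAP-no cilia 1 and 2 were below every FAP-ctrl value of Tnnt3, and FAP-no cilia 3 was above 2 of them. The log2 difference was -1.03 ± 0.42 (SE, limma adjusted p = 0.420), and it was -0.61 without FAP-no cilia 1. Tnnt1, the slow troponin T, was even in FAP-ctrl, at 24.6 to 28.6, and stood at 24.0, 64.5 and 24.5 in FAP-no cilia. The slow genes Tnnc1 and Tnni1 and the fast gene Tnni2 ranged from 0 to 11.8. Tnnc2 had no read, and exons of Ube2c on the opposite strand cover 592 of its 800 exon bases, so how overlapping reads were counted could set that value.

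The giant proteins of the sarcomere gave more reads than most fibre members. Ttn, which spans from Z disc to M line (ENSMUSG00000051747, chr2:76703980-76982547), stood at 104, 63.2, 129.5, 66.0 and 39.2 in FAP-ctrl and at 15.1, 16.1 and 59.5 in FAP-no cilia. FAP-no cilia 1 and 2 lay below all FAP-ctrl libraries, and FAP-no cilia 3 lay above FAP-ctrl 5. Its mean was 80.3 ± 35.9 (SD, n = 5) in FAP-ctrl against 30.3 ± 25.4 (SD, n = 3) in FAP-no cilia.

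For Ttn the log2 difference was -1.55 ± 0.50 (SE, limma adjusted p = 0.314). It was -2.17 without FAP-no cilia 3 (limma adjusted p = 0.0875) and -1.68 among male libraries (limma adjusted p = 0.610). Neb, the ruler of the thin filament, stood at 80.5, 94.3, 86.6, 95.5 and 33.7 and at 64.3, 69.9 and 37.7, with FAP-ctrl 5 far below the other FAP-ctrl libraries. The Z-disc actinins overlapped between the groups, at 36.3 to 66.4 in all libraries for Actn3 and 6.07 to 21.4 for Actn2.

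Genes of calcium handling and energy supply were low or even. Eno3, the muscle enolase (ENSMUSG00000060600, chr11:70657202-70662513), stood at 117, 158, 99.7, 121 and 131 in FAP-ctrl and at 111, 124 and 137 in FAP-no cilia. Its log2 difference was -0.0028 ± 0.18 (SE, limma adjusted p = 0.996). Atp2a1, the calcium pump of fast fibres, stood at 6.10, 6.43, 2.79, 6.94 and 16.4 and at 1.26, 7.17 and 5.25. Ckm, the muscle creatine kinase and an abundant fibre transcript, stood at 3.05, 1.07, 0, 6.07 and 0.911 and at 0, 0 and 1.75.

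Casq1, the calcium store protein, ranged from 10.2 to 27.4, and Ryr1, the calcium release channel, from 5.05 to 17.7. Mb (myoglobin) and Pvalb (parvalbumin) ranged from 0 to 17.7. Cox6a2, a muscle form of a respiratory chain subunit, had 1 read in all. Exons of a gene on the opposite strand overlap those of Atp2a1, Mb and Ckm, whose 50-base stretches are shared at 18.04%, 24.9% and 10.9%.

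FAP-no cilia and FAP-ctrl were then compared over all genes. The filter of at least 10 in at least 3 libraries left 14768 genes, among them 21 of the 41 members: 7 of 15 satellite cell and myoblast genes and 14 of 26 fibre genes. In limma-trend 0 of the 21 passed the adjusted threshold of 0.05, against a background of 0.00677% of all genes tested. DESeq2 on the recovered reads called 0 of them too, against 1.2% (0.684% lower and 0.515% higher in FAP-no cilia), as did edgeR with TMM factors (0.00677%) and limma-voom (0%). DESeq2 gave no adjusted p for Myod1, Myh3, Myl1 and Mb, so it could not call these. Its shares are of all 14768 genes, also those with no adjusted p. With no adjustment, 4 of the 21 had p under 0.05 in limma-trend and were lower in FAP-no cilia, and 0 were higher. The 4 were Itga7, Ttn, Myh3 and Tnnt3. Over all genes, 6.09% were lower and 4.68% higher at that level. Myh3 passed the filter only through FAP-ctrl, and the members were chosen with earlier results known. This count is therefore a description and not evidence of a difference. Groups did not overlap for 1 of the 21, Itga7, which was lower, against 3.69% of all genes for that direction and 3.62% for the other, in which no member stood.

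**Figure D3:**
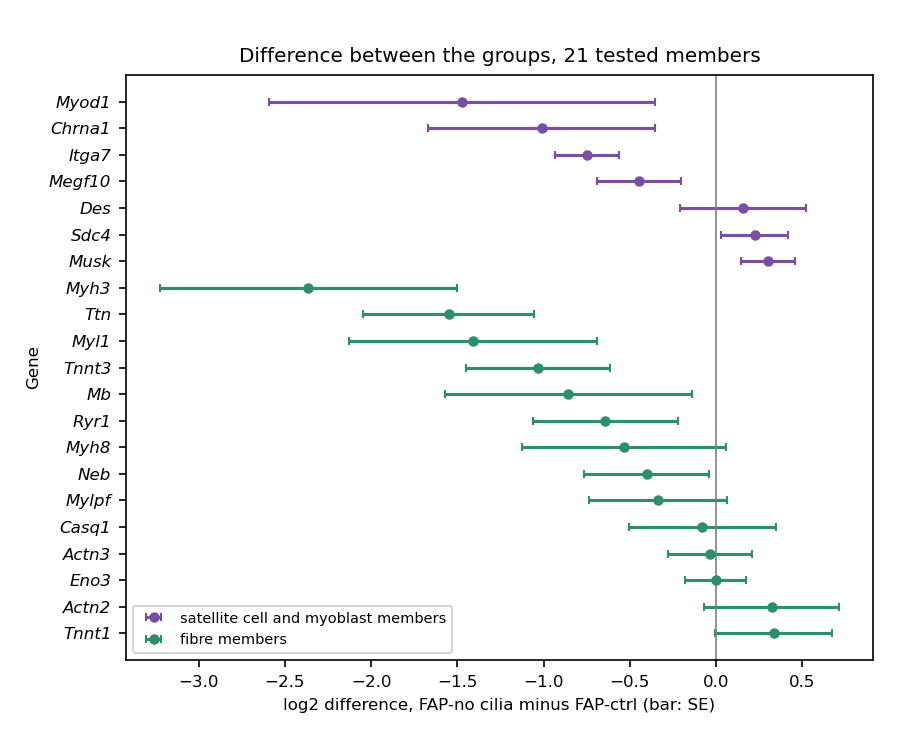
Log2 difference of FAP-no cilia minus FAP-ctrl (points) with its SE (bars) from limma-trend on log2(value + 1) for the 21 members that passed the filter, in 2 groups by colour. The estimates run from -2.36 (Myh3) to 0.33 (Tnnt1), and none passed the adjusted threshold of 0.05.

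Of the satellite cell and myoblast genes tested, 4 were lower and 3 higher, and of the fibre genes 12 were lower and 2 higher, where 48.5% of all genes were lower and 51.5% higher. The median log2 difference was -0.45 over the 7 and -0.47 over the 14, and 0.0077 over all genes tested. The 7 ran from -1.47 (Myod1) to 0.30 (Musk), and their median is the value of Megf10. Chrna1, Myh3, Myh8, Myl1 and Ryr1 passed the filter only through FAP-ctrl, so these counts and medians are a description and not evidence of a difference. Without a filter, the median was -0.69 over the 14 satellite cell and myoblast genes with any read, -0.53 over the 25 such fibre genes and -0.055 over all genes.

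With the same 7 genes kept, the median of the satellite cell and myoblast genes was -0.20 without FAP-no cilia 3, -0.23 without FAP-no cilia 2 and -0.64 among male libraries. The median of the same 14 fibre genes lay between -0.61 and -0.33 with 1 library left out and was -0.44 among male libraries. Applying the filter anew in each subset changed which genes were tested: without FAP-no cilia 3 Myod1 dropped out and the median over the other 6 was 0.049, and without FAP-ctrl 5 the median over the remaining 11 fibre genes was -0.22. Among male libraries it was -0.29 over 10 fibre genes. The difference between the medians of the 2 groups, fibre minus satellite cell, was -0.019. It lay between -0.44 and 0.12 when 1 library was left out and was 0.34 in the male libraries alone, both with the filter applied anew, so these data did not separate the groups in their difference between FAP-no cilia and FAP-ctrl.

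The summed value of the 26 fibre genes was 597, 568, 566, 527 and 539 in FAP-ctrl, against 353, 462 and 486 for FAP-no cilia. All FAP-no cilia sums were below all FAP-ctrl sums, and the log2 ratio of the group means was -0.37. Ttn, Neb, Eno3 and Actn3 made up 48.4% to 68.2% of it. Without these 4, the sums overlapped, at 181 to 278 and 112 to 206. The summed value of the 15 satellite cell and myoblast genes was 4729 to 7901 in FAP-ctrl and 5320 to 7815 in FAP-no cilia. Without Sdc4 it was 890.4 to 1480 and 1024 to 1052.

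Satellite cell and fibre genes did not order the libraries alike, and both orders depended on which genes were summed. By all 15 satellite cell and myoblast genes FAP-no cilia 3 stood at 5320, and FAP-ctrl 2 was the highest at 7901. The 5 genes left out next are those at 10 or more in all 8 libraries. That choice was made after the data were seen. Without Sdc4, Des, Itga7, Musk and Megf10, the remaining 10 satellite cell and myoblast genes summed to 112, 92.2, 125, 39.1 and 142 in FAP-ctrl, against 24.0, 17.9 and 153 for FAP-no cilia. FAP-no cilia 3 was the highest library of all by this sum, in which Chrna1 alone gave 83.2 of its 153. It was below every FAP-ctrl library by the sum of all 26 fibre genes. FAP-ctrl 4 was below the other FAP-ctrl libraries in both, by far in the first (39.1) and by little in the second (527). FAP-no cilia 1 and 2 were the lowest of all libraries in both of these sums. The fibre order depended on its highest genes. Without Ttn, Neb, Eno3 and Actn3, the fibre sums were 246, 186, 213, 181 and 278 in FAP-ctrl. They were 112, 206 and 191 in FAP-no cilia, so FAP-no cilia 2 and 3 were then above FAP-ctrl 2 and 4.

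**Figure D4:**
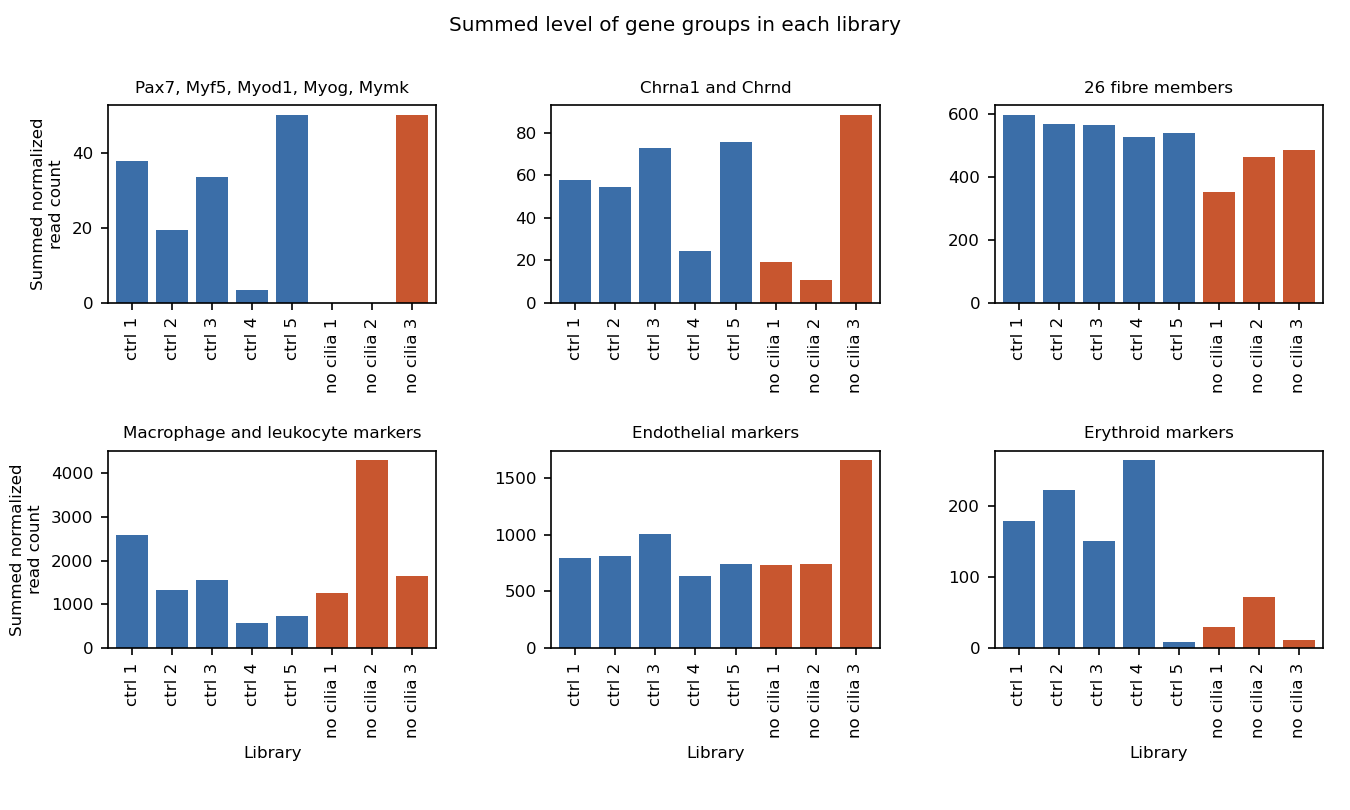
Summed normalized read count (bars, linear axes from 0) in each of the 8 libraries, for 3 groups of members (upper row) and 3 marker lists of other cells (lower row), with FAP-ctrl in blue and FAP-no cilia in orange. The 5 regulators and the receptor subunits are highest or nearly so in FAP-ctrl 5 and FAP-no cilia 3, macrophage markers are highest in FAP-no cilia 2 and endothelial markers in FAP-no cilia 3.

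Markers of other cells of the injured muscle varied between the same libraries. The 12 macrophage and leukocyte markers summed to 578 to 2578 in FAP-ctrl and 1255 to 4298 in FAP-no cilia, with FAP-no cilia 2 the highest and none of them at 0 in any library. The 10 endothelial markers summed to 640.5 to 1006 and 733 to 1660, with FAP-no cilia 3 the highest, and Cldn5 at 0 in 5 libraries. Rgs5, a pericyte gene, stood at 838 in FAP-no cilia 3 and at 25.2 to 166 elsewhere. The 6 erythroid markers summed to 8.20 to 266 and 11.4 to 71.7. FAP-no cilia 3, the library with the most Myod1 and Chrna1, was thus also the highest in endothelial markers and Rgs5. Rgs5 is 1 of the 9 pericyte and smooth muscle markers, whose sum was 6229, 5628 and 5080 in FAP-no cilia 1 to 3. That sum was 3183 to 5842 in FAP-ctrl, so FAP-no cilia 3 was not the highest by it. By the median log2 deviation of the tested markers from their gene means, FAP-no cilia 3 was the highest, at 0.36. The part of other cells in the myogenic reads was not tested.

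Spread between libraries of one group was wide for the members. The SD of log2(value + 1) within groups had a median of 0.58 over the 21 tested members and 0.22 over all genes tested, and 19 of the 21 lay above that median. The SD depends on the level, so members were set beside all genes in the same range of mean value. At a mean of 5 to 20 the median was 1.01 over 8 members and 0.65 over 1691 genes. At 20 to 50 it was 0.61 over 4 members and 0.47 over 1433 genes, and at 50 to 200 it was 0.33 over 6 and 0.31 over 2418.

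The 2 members at 200 to 1000, Des and Musk, had a median of 0.42 against 0.18 over 4386 genes, and Sdc4 had 0.33 against 0.14 over the 4434 genes at 1000 to 10000. Myod1 had the widest SD of the 21 (1.86), and Musk and Eno3 the narrowest (0.21 each). Chrna1, at 1.12, was the widest of the 4 members at 20 to 50.

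**Figure D5:**
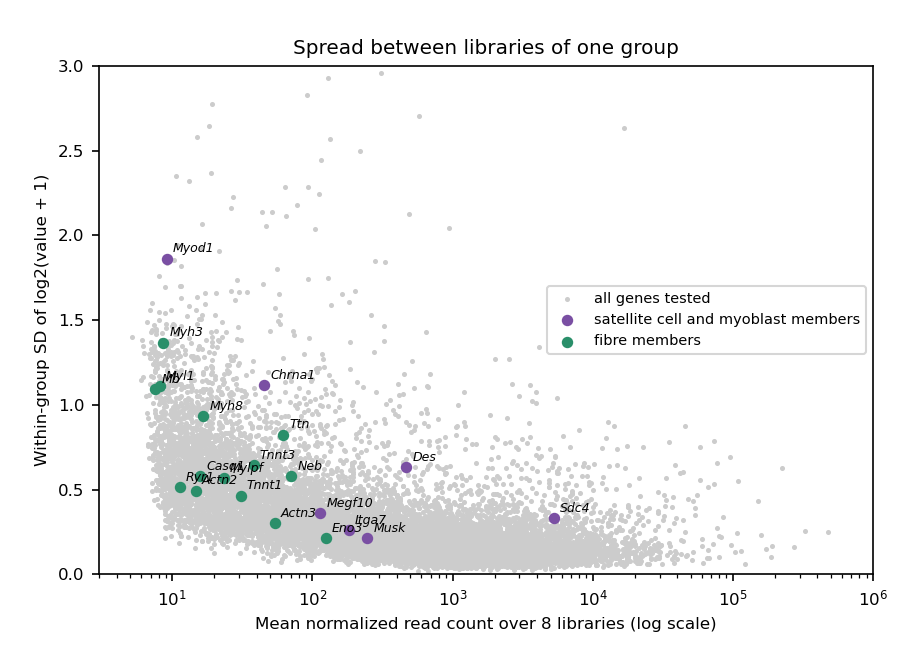
Within-group SD of log2(value + 1) against the mean normalized read count over the 8 libraries (log axis) for all 14768 genes tested (grey; 12 lie above the plotted range) and the 21 tested members (coloured by group). Chrna1, Ttn, Des and Sdc4 stand above most genes of their level, whereas Itga7, Musk, Eno3 and Actn3 lie within the main band.

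Wider lists of muscle genes gave no call in limma-trend either. Of 30 other myogenic genes 21 were tested, with 16 lower and 5 higher and a median log2 difference of -0.079. Of 56 other muscle fibre genes 24 were tested, with 14 lower and 10 higher and a median of -0.21. As 1 and 5 of the tested genes of these lists passed the filter only through FAP-ctrl, these splits are a description and not evidence of a difference. In limma-trend 0 of these 45 passed, whereas DESeq2 called 3, all lower in FAP-no cilia (Rbfox1, Ampd1 and Flnc), against 0.684% of all genes in that direction.

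Ampd1, the AMP deaminase of muscle, stood at 118, 78.2, 152, 144 and 65.6 in FAP-ctrl and at 44.1, 23.3 and 48.2 in FAP-no cilia (log2 difference -1.50 ± 0.34 SE, limma adjusted p = 0.195, DESeq2 adjusted p = 0.00586). Flnc, the actin crosslinker filamin C, stood at 5185, 8255, 4633, 6049 and 5934 and at 3269, 4475 and 2773 (log2 difference -0.78 ± 0.19 SE, limma adjusted p = 0.232, DESeq2 adjusted p = 0.0183). Rbfox1, a splicing factor of muscle and neurons, stood at 282, 238, 351, 207 and 181 and at 119.8, 138 and 159 (log2 difference -0.83 ± 0.21 SE, limma adjusted p = 0.232, DESeq2 adjusted p = 0.029). In the male libraries alone the log2 differences were -1.36 for Ampd1, -0.93 for Flnc and -0.90 for Rbfox1. Their limma adjusted p there was 0.545, 0.461 and 0.384. The DESeq2 fit modelled genotype alone, without sex. For each of these 3 genes the groups did not overlap. They were picked for their small p, so this is a description and not evidence of a difference. Over the tested genes of each list, groups did not overlap for 1 of 21 other myogenic and 2 of 24 other muscle fibre genes, all lower. The share over all genes was 3.69% in that direction.

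Klhl40, a protein of the thin filament, had the next smallest p and overlapped, with a log2 difference of -2.40 ± 0.68 (SE, limma adjusted p = 0.252). It passed the filter only through FAP-ctrl, and no FAP-no cilia library reached 10, so it is given as a description. In the other direction Cxcr4, a chemokine receptor of satellite cells and leukocytes, had a difference of 0.93 ± 0.45 (SE, limma adjusted p = 0.493) and was highest in FAP-no cilia 2 (199), the library with the most macrophage markers; it was 0.51 without that library. Cryab, a small heat shock protein, had one of 0.39 ± 0.21 (SE, limma adjusted p = 0.551), which was 0.22 among male libraries and 0.24 without FAP-ctrl 3.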

How the data were processed

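Per the series design text and the submitters' processing notes, the authors aligned reads with STAR to GRCm38 and scaled them by DESeq to a geometric mean across samples; libraries were stranded, with 50-base reads. The sources used here do not give the counting tool or its strand setting. Each deposited value is a signal, namely a gene's read count over the library's size factor: 100% of values were whole multiples of 1 read within 0.01 reads, and the recovered reads summed to 15.3 to 43.9 M per library. Symbols, coordinates and exon lengths were looked up by identifier in GENCODE's GRCm38 annotation (32919 of 37991 identifiers matched), perhaps not the authors' release.

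Values of at least 10 in at least 3 libraries were tested as log2(value + 1) by limma-trend, modelling genotype alone, with Benjamini-Hochberg adjustment over all genes. The test was checked on simulated counts with large changes and the same spread setting for every gene. That check does not show what the test could find among low or widely spread members. The members and lists were chosen with earlier results of these data known. Every library's value is given for 16 members chosen for their role and the 8 members with the smallest p; the further lists give up to 3 genes per direction. Values of Neb and Tnnt1 were added after they were seen. Tools were Python 3.11.15, DESeq2 1.42.0, edgeR 4.0.16, limma 3.58.1 and R 4.3.3. Alternatives were other pseudocounts, filters, tests on recovered reads, a replicate block, a sex term and each library left out. Male libraries alone and medians over the same members with libraries left out were added after the data were seen. So were sums without Sdc4, sums without Sdc4, Des, Itga7, Musk and Megf10, and sums without Ttn, Neb, Eno3 and Actn3.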

Additional observations from a re-analysis of the deposited data

Results flagged for a closer look

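Of 23 results checked for a stray library in FAP-ctrl, the 21 tested members and the 2 sums, 1 stood out. Neb was 33.7 in FAP-ctrl 5 and 80.5 to 95.5 in the other 4 FAP-ctrl libraries, a gap of 0.757 of the range of the group, above the limit of 0.71 for 5 samples. Chance flags about 1 in 20 such groups. FAP-ctrl 5 had the most Tnnt3 and Acta1 of its group and, at 8.20, the lowest summed erythroid markers.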

How the results depend on the processing

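The count of members called, 0 in limma-trend, was also 0 under each of 19 alternatives, which included edgeR, DESeq2 and limma-voom. The satellite cell and myoblast median of -0.45 became -0.69 without a filter, 0.16 at a mean of at least 50 (5 members), -0.088 with edgeR and TMM factors, -0.082 with RLE factors and -0.64 with sex as a term. It ranged from -0.51 to 0.049 with 1 library left out and the filter applied anew (6 or 7 members; 6 at 0.049), and from -0.57 to -0.20 over the same 7 members, whose median was -0.64 among male libraries. The fibre median of -0.47 became -0.22 at a mean of at least 50 (4 members) and -0.29 in the male libraries alone (10 members). It ranged from -0.57 to -0.22 with 1 library left out and the filter applied anew (11 to 14 members; 11 at -0.22), and from -0.61 to -0.33 over the same 14. The fibre minus satellite cell difference of -0.019 became -0.38 at a mean of at least 50, -0.35 with edgeR under either set of factors (-0.352 and -0.354), 0.20 with sex as a term and 0.34 in the male libraries alone, and ranged from -0.44 to 0.12 with 1 library left out. The log2 ratio of the fibre sums, -0.37, ranged from -0.46 to -0.24, and that of the satellite cell and myoblast sums, 0.17, from 0.062 to 0.32, with 1 library left out; the latter was -0.13 without Sdc4 and -0.013 in the male libraries alone. With 7 or 5 members the satellite cell and myoblast median is the value of a single gene. That gene was Megf10 in the main setting, Myod1 with edgeR under either set of factors, and Des at a mean of at least 50. Apart from this and the change in members tested, the cause of these shifts was not tested.

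Des turned to -0.052 with the replicate block, to -0.61 with sex as a term or in males alone and ranged from -0.068 (without FAP-ctrl 3) to 0.40 with 1 library left out. Eno3 turned to 0.015 with limma-voom, 0.012 with the block, 0.083 and 0.018 without FAP-ctrl 2 and 5, and 0.074 without FAP-no cilia 1; the lowest value with 1 library left out was -0.080. Libraries with the same replicate number did not deviate together (correlations over genes of -0.070, 0.135 and 0.036 for numbers 1 to 3), and the replicate block gave medians of -0.42 and -0.59 and again 0 members called. The other 16 genes for which alternatives were computed kept their direction wherever they were tested, but not their size: Myod1 ranged from -3.46 (pseudocount 0.1) to -0.082 (edgeR with RLE factors), and Sdc4 was 0.051 with the block. Depth limits the low members: 3 reads are worth 1.83 to 5.38 normalized reads, depending on the library.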
